A study of Arabidopsis thaliana with 27 samples.

Results

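MIR163 and MIR408 are microRNA loci of Arabidopsis thaliana whose expression is known to respond to light. Both were taken by name from the table of raw small RNA counts, where they are 2 of 323 microRNA loci (AT1G66725 and AT2G47015). The study measured small RNAs in hypocotyls of seedlings grown in the dark and exposed to UV-B, in 27 libraries that fall into 9 groups of 3. The groups cross 3 genotypes, xpf-3, uvr8-6 and the wild type (WT) Columbia-0, with 3 treatments: no UV-B (called dark here), about 5 minutes of UV-B giving 3000 µmol per square metre, and about 45 minutes giving 30000 µmol per square metre. Plants of all 9 groups germinated on 0.5x MS medium with 100 µM of the gibberellin GA4, stayed in darkness for 2.5 days, and went back to darkness after the exposure. Hypocotyls were cut 6 hours after UV-B per the labels, while the series title speaks of 2 days. The titles number the libraries of each group I, II and III, and no label ties these to separate cultures, and the spread that the p-values weigh may thus be technical. Each mutant is represented by 1 allele. XPF and UVR8 mRNAs are not part of a small RNA table, which leaves the genotype labels unchecked, and no microRNA marks the hypocotyl strictly enough to check the organ.

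MicroRNAs are cut from hairpin precursors and guide Argonaute proteins to mRNAs with matching sites. In light-grown Arabidopsis, miR163 is known to target methyltransferases of the SABATH family, enzymes that methylate small molecules, several with roles in defence, and its gene is a target of HY5, the transcription factor that promotes development in the light. miR408 targets the copper proteins plantacyanin and laccase. Its gene is activated by SPL7, the regulator of copper deficiency, and by HY5. UVR8 is the photoreceptor of UV-B, which acts upstream of HY5, and XPF is a subunit of the endonuclease that cuts damaged DNA in nucleotide excision repair.

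The mature sequences are shown because they are the annotated products of both loci. The table counts loci, and does not say which product a count came from. They are given 5′ to 3′ from the TAIR10.1 genome and its RefSeq annotation, with the seed (bases 2 to 8) in capitals.
miR163: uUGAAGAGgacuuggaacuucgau
miR408-5p: aCAGGGAAcaagcagagcaug
miR408-3p: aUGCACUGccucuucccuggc
miR163 is 24 nucleotides long and both miR408 products are 21. Each occurs once in TAIR10.1, and no other annotated mature microRNA shares any of the 3 seeds. MIR163 lies on chromosome 1 with an annotated precursor of 331 nucleotides, and MIR408 on chromosome 2 with one of 218. MIR408 overlaps the gene AT2G47020, which lies on the opposite strand. The sources used here do not state whether counting used strand. Without strand, reads of MIR408 and of AT2G47020 cannot be told apart where the genes overlap.

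The span of the MIR408 hairpin from the start of the 5p product to the end of the 3p product shows both arms, in capitals, around a loop of 46 nucleotides.
MIR408: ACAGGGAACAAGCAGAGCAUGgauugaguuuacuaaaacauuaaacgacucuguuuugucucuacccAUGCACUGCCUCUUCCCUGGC

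Sites in known targets show what each product can pair with. Spliced RefSeq mRNAs were searched without gaps, scoring 1 for each mismatch and 0.5 for each G:U pair. Capitals mark bases that do not form a Watson-Crick pair, and sites are written 5′ to 3′. The first 3 sites belong to miR163 and the other 3 to miR408-3p.
PXMT1: CAUCGaguuccaaguccucuucaa
FAMT: aAUCGaguuccaaguUUucuucaa
AT1G66720: CAUCGaguuccaGguccucuucaa
ARPN: CcAagggaagaggcagugcau
LAC3: AccagUgaagaggcUgugcaG
LAC13: gccGgUgaagaggcUgugcaG
PXMT1 and FAMT are SABATH methyltransferases. Their sites scored 4.0, a score reached by 8 of 27438 genes (0.0292%). AT1G66720, the neighbour of MIR163 on the chromosome, scored 4.5. ARPN, which encodes plantacyanin, scored 2.0 for miR408-3p, a score reached by 2 of 27440 genes (0.00729%). The laccases LAC3 and LAC13 scored 4.0 and 3.5, and 20 genes (0.0729%) scored 4.0 or less. The other gene at or under 2.0 is AT2G47020, which overlaps the MIR408 precursor on the opposite strand. These matches describe sequences, and target mRNAs were not measured.

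The libraries held 15790 to 67899 counts over the 323 microRNA loci (median 42180), within 681228 to 1970871 counts of all small RNAs. Levels are given in CPM, counts per 1000000 of the TMM-scaled microRNA total of the library, where a single count stands for 14.0 to 62.8 CPM. Both loci had counts in 27 of 27 libraries. MIR163 had 702 counts in all and ranked 58 of 323 loci, with 132 to 1716 CPM. MIR408 had 425 counts and ranked 66, with 81.6 to 1135 CPM. The small counts limit the precision of both. For MIR408 the 3 WT libraries at 30000 µmol per square metre held 15 counts in all (exact 95% Poisson interval 8.40 to 24.7), and for MIR163 the 3 dark uvr8-6 libraries held 26 (17.0 to 38.1). These intervals cover counting error only.

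The 3 uvr8-6 libraries numbered II stand apart for MIR163. They held 396 to 880 CPM, from 10, 14 and 50 counts, while the other 6 uvr8-6 libraries held 132 to 239 CPM, from 5 to 11 counts. For MIR408 they held 139 to 436 CPM, within or below the 272 to 608 CPM of the other 6. Differences of MIR163 in uvr8-6 from WT and from dark are therefore given with and without them, a choice made after the counts were seen.

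MIR408 was higher in both mutants than in WT. In xpf-3 it had 16, 24 and 25 counts in the dark, 30, 19 and 30 after 3000, and 32, 18 and 13 after 30000 µmol per square metre (libraries I, II and III). In uvr8-6 it had 13, 3 and 20 counts in the dark, 21, 16 and 16 after 3000, and 12, 11 and 28 after 30000. In WT it had 13, 9 and 4 counts in the dark, 22, 9 and 6 after 3000, and 2, 11 and 2 after 30000. In CPM, 7 of 9 xpf-3 libraries and 6 of 9 uvr8-6 libraries lay above the highest WT library, at 348 CPM. The 9 xpf-3 libraries ran between 327 and 1135 CPM with a median of 495, the 9 uvr8-6 libraries between 139 and 608 with a median of 436, and the 9 WT libraries between 81.6 and 348 with a median of 147. The lowest of the uvr8-6 values came from dark library II, with 3 counts.

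Averaged over the 3 treatments, MIR408 was 3.06-fold higher in xpf-3 than in WT (log2 1.61 ± 0.30 SE, 95% interval 0.98 to 2.25, edgeR adjusted p = 0.00248). Of the 101 loci with enough counts to test, 2 passed the threshold in this comparison (1.98%), and MIR408 had the smallest p of all. In uvr8-6 the difference from WT was 2.23-fold (log2 1.15 ± 0.30 SE, 95% interval 0.52 to 1.79, edgeR adjusted p = 0.00384). There 44 of 101 loci passed (43.6%), 20 higher and 24 lower (12 and 24 with library sizes of all small RNAs), and MIR408 ranked 26th by p. A call for MIR408 in uvr8-6 therefore sits among many, whereas in xpf-3 it is 1 of a pair of calls. An exact two-sided permutation test of log2(CPM + 1), which shuffled libraries within each treatment, gave p = 0.00025 for xpf-3, the smallest that 8000 arrangements can give, with an adjusted p over the 101 loci of 0.0253. For uvr8-6 the exact permutation p was 0.0035 (adjusted 0.0104).

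These calls held for MIR408 whichever of the 18 libraries of a comparison was left out, with log2 values of 1.44 to 1.77 in xpf-3 and 1.09 to 1.48 in uvr8-6. Scaling to all small RNAs in place of microRNAs gave 1.32 in xpf-3, with an edgeR adjusted p of 0.0635, which misses the threshold. That scaling moved the median of all 101 loci by -0.30 in the same comparison, to -0.26. MicroRNAs made up 4.23, 2.99 and 3.11% of all small RNA counts in dark, 3000 and 30000 in xpf-3, and 4.81, 4.38 and 2.96% in WT (group means), and the part of this share in the result was not tested.

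In dark libraries alone, MIR408 averaged 474 ± 137 CPM in xpf-3, 313 ± 197 CPM in uvr8-6 and 167 ± 83.8 CPM in WT (SD, n = 3 each). The 3 dark xpf-3 libraries ran between 327 and 599 CPM and the 3 dark WT libraries between 111 and 263, while dark uvr8-6 overlapped WT. With 3 libraries against 3, such a separation gives an exact two-sided permutation p of 0.1 (adjusted 0.748). The share of all 101 loci that separate in this way was not counted. The log2 differences from dark WT were 1.48 ± 0.52 SE in xpf-3 (edgeR adjusted p = 0.445, 95% interval 0.40 to 2.57) and 0.92 ± 0.52 in uvr8-6 (adjusted p = 0.244), so neither passed. In the dark, edgeR called 0 of 101 loci between xpf-3 and WT (0%), with 5 at an unadjusted p under 0.05 and 1 called by DESeq2, and 14.9% between uvr8-6 and WT.

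**Figure D1:**
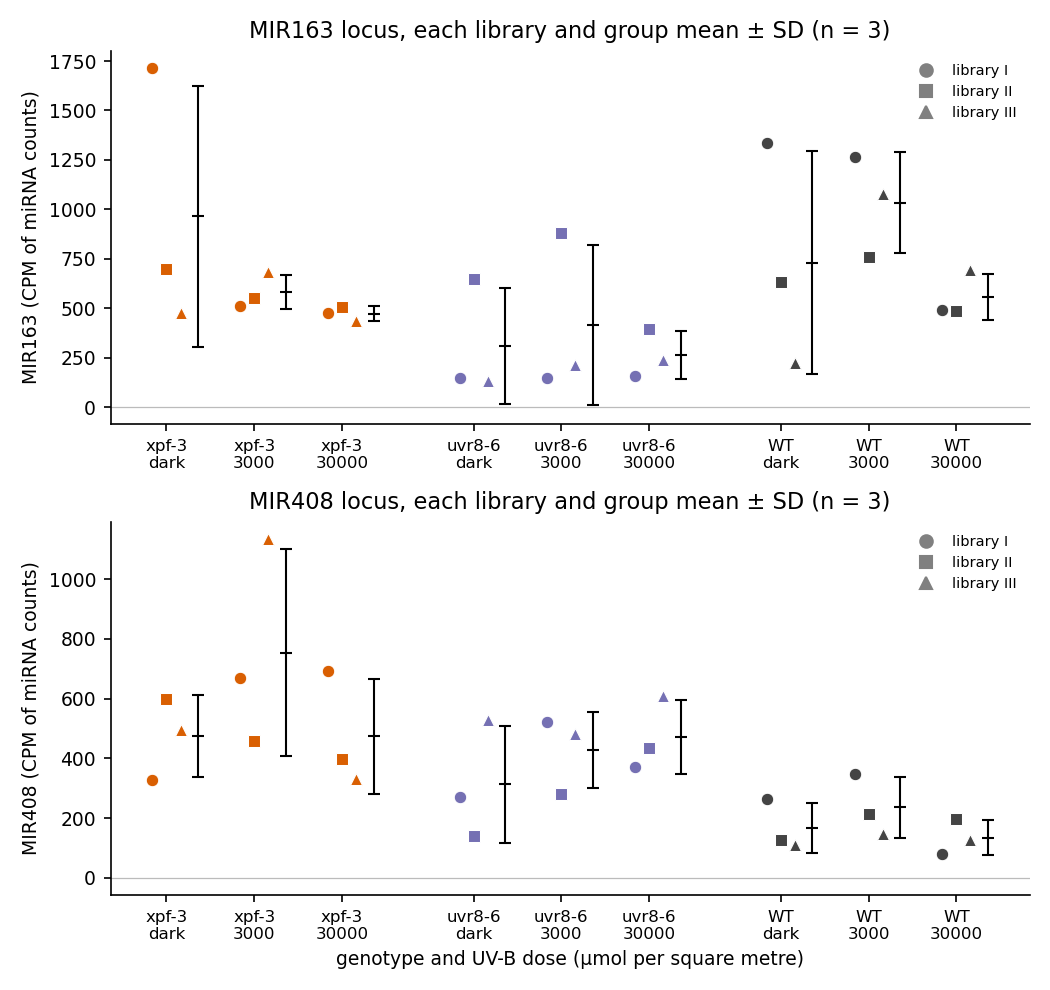
Levels of MIR163 (top) and MIR408 (bottom) in CPM of microRNA counts, for the 9 groups of genotype and UV-B dose. Each point is a library, its shape gives the library number, and the bars are group means ± SD (n = 3). All 9 WT libraries lie at or below 348 CPM for MIR408, and the 3 uvr8-6 libraries numbered II lie above the other 6 for MIR163.

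MIR163 was lower in uvr8-6 than in WT and did not pass the test in xpf-3. In uvr8-6 it had 7, 14 and 5 counts in the dark, 6, 50 and 7 after 3000, and 5, 10 and 11 after 30000 (libraries I, II and III). In WT it had 66, 45 and 8 counts in the dark, 80, 32 and 44 after 3000, and 12, 27 and 11 after 30000. In CPM, 5 of 9 uvr8-6 libraries lay below the lowest WT library, at 222 CPM, and 1 lay above the WT median. The 9 uvr8-6 libraries ran between 132 and 880 CPM with a median of 211, and the 9 WT libraries between 222 and 1336 with a median of 691.

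Averaged over treatments, MIR163 stood at 0.427 of its WT level in uvr8-6 (log2 -1.23 ± 0.40 SE, 95% interval -2.06 to -0.40, edgeR adjusted p = 0.0154), in the comparison where 43.6% of loci passed, and it ranked 35th by p. The exact two-sided permutation test gave p = 0.008 (adjusted 0.0231). Without the 3 uvr8-6 libraries numbered II the log2 difference was -2.03. Those libraries were picked for their high MIR163, so this larger fall follows from the choice and adds no support. The call held in 11 of 18 fits that left out 1 library. It was lost without WT dark I, WT 3000 I, WT 30000 I, WT 30000 III, uvr8-6 dark I, uvr8-6 dark III or uvr8-6 30000 III, with log2 values of -1.04 to -0.89 and edgeR adjusted p of 0.0517 to 0.104.

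In the dark, MIR163 averaged 309 ± 294 CPM in uvr8-6 and 729 ± 564 CPM in WT (SD, n = 3 each). These groups overlapped, and the log2 difference of -1.33 ± 0.69 SE did not pass (edgeR adjusted p = 0.210). It was -2.24 without the uvr8-6 libraries numbered II and -2.37 without uvr8-6 dark II alone. Both values pass in edgeR, but dropping the highest libraries fixes a larger fall, so neither is support for a difference in the dark.

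In xpf-3, MIR163 had 84, 28 and 24 counts in the dark, 23, 23 and 18 after 3000, and 22, 23 and 17 after 30000. Its levels ran between 434 and 1716 CPM with a median of 513, within the range of WT except for dark library I, the highest of all 27. The log2 difference between xpf-3 and WT was -0.22 ± 0.38 SE averaged over treatments (95% interval -1.02 to 0.58, edgeR adjusted p = 0.997) and 0.39 ± 0.65 in the dark (adjusted p = 0.897). The interval leaves room for a change of up to 1.02 on the log2 scale in the lower direction. In the dark the sign turned to -0.32 without xpf-3 dark I.

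**Figure D2:**
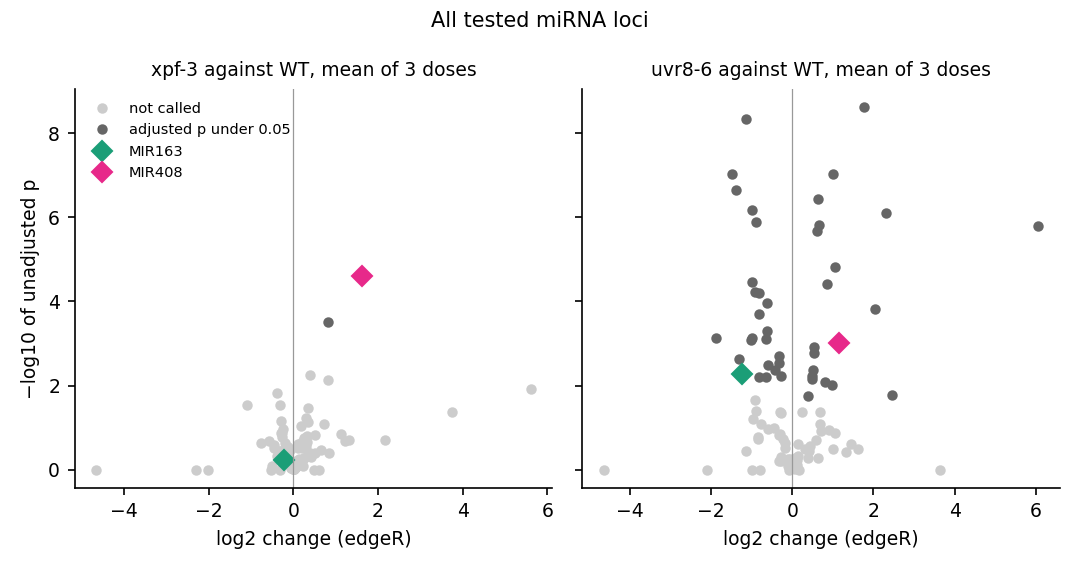
The log2 difference of each mutant from WT, averaged over the 3 treatments, against -log10 of the unadjusted edgeR p for the 101 tested microRNA loci. Dark points passed at an adjusted p under 0.05, and diamonds mark MIR163 and MIR408. In xpf-3 (left) MIR408 has the smallest p of all loci, and in uvr8-6 (right) both loci lie among 44 that passed.

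The balance of both loci within a library does not depend on scaling. MIR163 made up 37.5 to 84.0% of the counts of the pair in xpf-3 (median 53.8%), 20 to 82.4% in uvr8-6 (median 30.4%) and 66.7 to 88.0% in WT (median 83.3%). Only xpf-3 dark I, uvr8-6 dark II and uvr8-6 3000 II of the 18 mutant libraries reached the WT range. Summed over 9 libraries, there were 262 counts of MIR163 and 207 of MIR408 in xpf-3, 115 and 140 in uvr8-6, and 325 and 78 in WT. The share was not tested, and it compares genotypes only, since the products differ in length and may be captured unequally. Across the 27 libraries, log2(CPM + 1) of the loci had a Pearson's r of -0.19 and a Spearman's rho of -0.27, a description of libraries that share groups and depth.

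**Figure D3:**
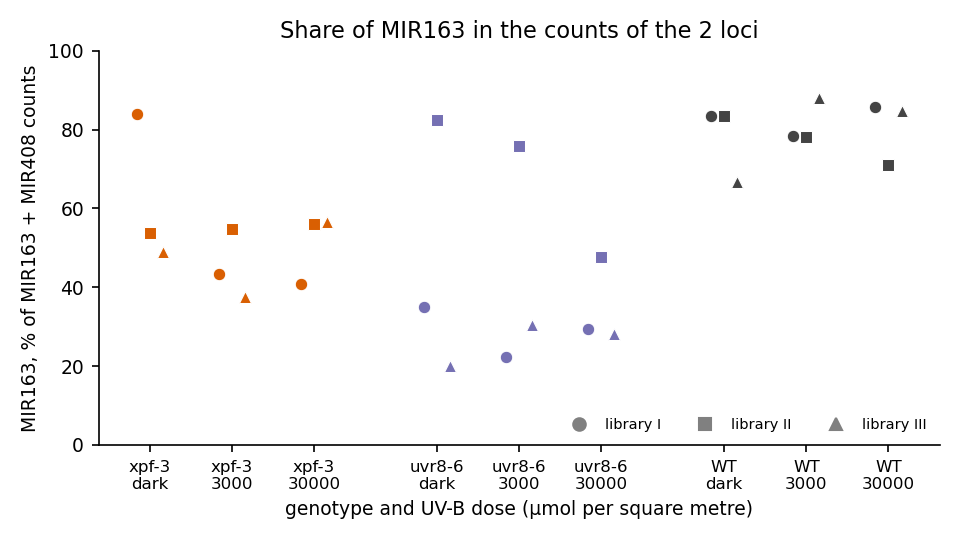
Share of MIR163 in the summed counts of MIR163 and MIR408 (%), for each library of the 9 groups of genotype and UV-B dose, with the library number as the shape. The 9 WT libraries lie at 66.7% or above, and 15 of 18 mutant libraries lie below that.

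UV-B gave no change in either locus that passed the test with microRNA totals as library sizes, at either dose or in any genotype. MIR408 averaged 474 ± 137, 754 ± 347 and 474 ± 191 CPM in xpf-3 at dark, 3000 and 30000 µmol per square metre (SD, n = 3 each). It averaged 313 ± 197, 428 ± 128 and 472 ± 123 CPM in uvr8-6, and 167 ± 83.8, 236 ± 103 and 135 ± 59.0 CPM in WT, in the same order. Group means at 3000 stood above those in the dark in all 3 genotypes, and the libraries overlapped in each. Averaged over genotypes, the log2 difference at 3000 from dark was 0.53 ± 0.29 SE (95% interval -0.09 to 1.14, edgeR adjusted p = 0.325), where 2.97% of loci passed, and the exact two-sided permutation p was 0.0653. At 30000 it was 0.11 ± 0.30 (95% interval -0.52 to 0.75, adjusted p = 0.848), where 34.7% of loci passed, 19 higher and 16 lower (3 and 44 with library sizes of all small RNAs). Both doses are set against the same dark libraries.

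Within genotypes, MIR408 at 3000 differed from dark by 0.66 ± 0.49 in xpf-3 (adjusted p = 0.469), 0.41 ± 0.51 in uvr8-6 (adjusted p = 1) and 0.51 ± 0.52 in WT (adjusted p = 0.811), as log2 ± SE from edgeR. Among all tested loci 6.93% passed in xpf-3, 0.99% in WT and 0% in uvr8-6, where 5 loci had an unadjusted p under 0.05 and DESeq2 also called 0. At 30000 the log2 differences were 0.00 ± 0.49 in xpf-3, 0.57 ± 0.51 in uvr8-6 and -0.23 ± 0.56 in WT, where 15.8, 2.97 and 14.9% of loci passed. These counts of 16, 3 and 15 loci ran from 6 to 17, 0 to 6 and 5 to 19 when 1 library was left out. The uvr8-6 value had the smallest adjusted p of these 3, at 0.510. The sign of the xpf-3 value changed with several settings.

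MIR163 averaged 964 ± 661, 582 ± 87.6 and 473 ± 37.0 CPM in xpf-3 at dark, 3000 and 30000 (SD, n = 3 each). It averaged 309 ± 294, 413 ± 405 and 263 ± 122 CPM in uvr8-6, and 729 ± 564, 1034 ± 256 and 556 ± 117 CPM in WT. The means at 30000 stood below those in the dark in all 3 genotypes. In uvr8-6 this depended on single libraries. Libraries I and III held 155 and 239 CPM at 30000, above 147 and 132 CPM in the dark. The log2 difference turned to 0.29 without all 3 libraries numbered II, to 0.89 without dark II alone and to 0.10 without 30000 I alone. Dark II is the highest dark uvr8-6 library, so a rise without it follows from the choice. Several groups spread far wider than counting error, which alone gives a chi-square per degree of freedom near 1. At dark, 3000 and 30000 this was 21.8, 0.424 and 0.121 in xpf-3, 9.21, 16.5 and 1.67 in uvr8-6, and 18.5, 3.04 and 0.525 in WT.

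Averaged over genotypes, the log2 difference of MIR163 from dark was 0.10 ± 0.38 SE at 3000 (95% interval -0.70 to 0.90, edgeR adjusted p = 0.9998) and -0.53 ± 0.40 at 30000 (95% interval -1.36 to 0.30, adjusted p = 0.322). By genotype, at 3000 it was -0.73 ± 0.66 in xpf-3, 0.53 ± 0.69 in uvr8-6 and 0.50 ± 0.65 in WT, and at 30000 it was -1.02 ± 0.66, -0.16 ± 0.72 and -0.41 ± 0.67 in the same order. Single libraries moved these values: without xpf-3 dark I they were -0.014 at 3000 and -0.31 at 30000 in xpf-3. Without WT dark III the value at 3000 in WT was 0.080, and without WT dark I the values in WT were 1.11 at 3000 and -0.0019 at 30000. In uvr8-6 the value at 3000 was -0.69 without 3000 II, 1.66 without dark II and 0.18 without all 3 libraries numbered II. Libraries 3000 II and dark II are each the highest of their group, so the direction of each single move follows from the choice. With all libraries, the adjusted p lay between 0.290 (xpf-3 at 30000) and 1. With library sizes of all small RNAs, MIR163 at 30000 passed in xpf-3 (-1.81, edgeR adjusted p = 0.0375) and over the 3 genotypes (-1.16, adjusted p = 0.0172). That scaling moved the median of all loci by -0.70 in the mean over genotypes, to -0.54, beside the shares of microRNAs in all small RNA counts, which at dark, 3000 and 30000 averaged 3.35, 3.14 and 2.30% in uvr8-6. The exact permutation test within 1 genotype has 20 arrangements and cannot go below p = 0.1.

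Whether the mutants responded to UV-B differently from WT was tested as a difference of responses. For MIR408 this was 0.15 ± 0.74 SE (log2) in xpf-3 and -0.10 ± 0.70 in uvr8-6 at 3000, and 0.24 ± 0.74 and 0.80 ± 0.75 at 30000. For MIR163 it was -1.23 ± 0.92 in xpf-3 and 0.04 ± 0.86 in uvr8-6 at 3000, and -0.61 ± 0.94 and 0.25 ± 0.99 at 30000. None of these 8 values passed, with edgeR adjusted p of at least 0.775, and their standard errors leave room for differences of more than 1 on the log2 scale. In each of the 4 comparisons edgeR called 0 of 101 loci (0%). At an unadjusted p under 0.05 there were 4 and 8 loci for xpf-3 at 3000 and 30000, and 3 and 9 for uvr8-6, and DESeq2 called 2 for xpf-3 at 30000 and 0 in the other 3.

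**Figure D4:**
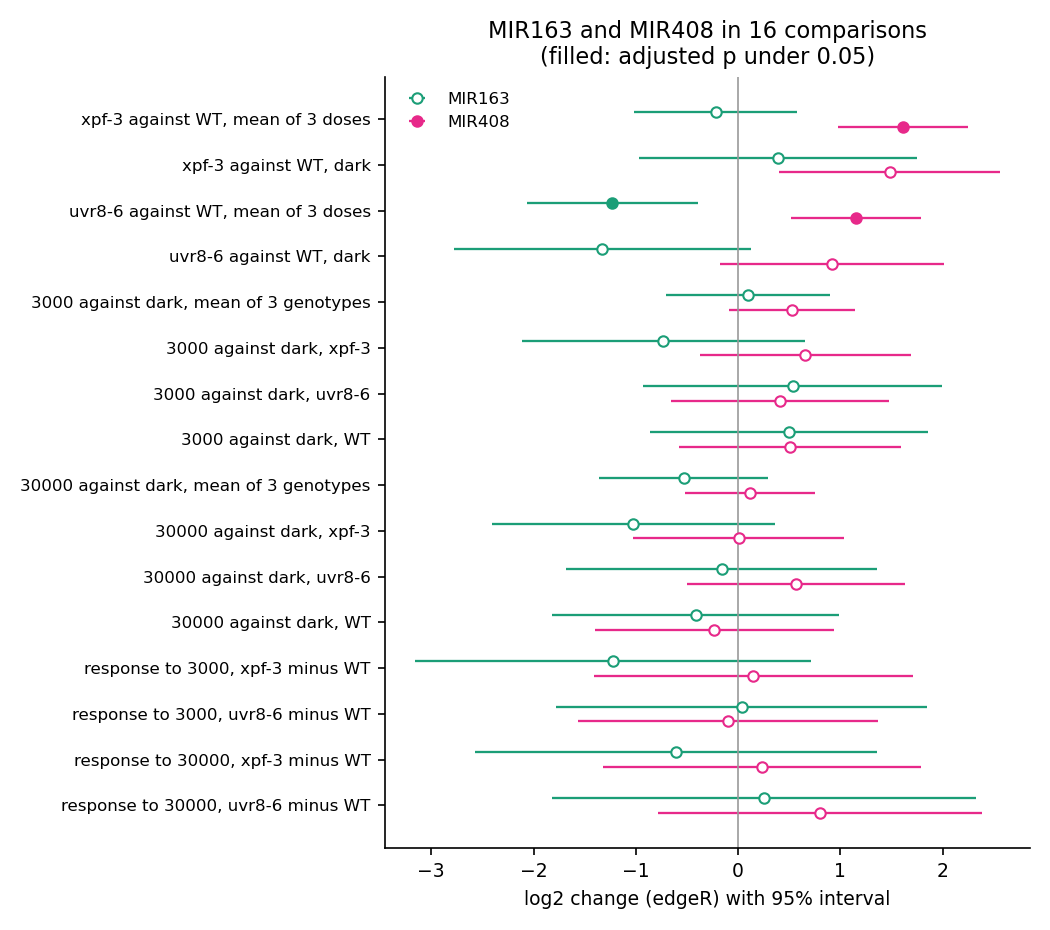
Log2 changes of MIR163 and MIR408 in the 16 comparisons, with 95% intervals from edgeR's quasi-likelihood fit. Filled points passed at an adjusted p under 0.05: MIR408 in both mutants averaged over treatments, and MIR163 in uvr8-6 averaged over treatments. Every interval for UV-B against dark covers 0.

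Ordered by group mean, MIR408 was highest in xpf-3 at 3000, then xpf-3 in the dark and xpf-3 at 30000, followed by uvr8-6 at 30000, at 3000 and in the dark, and by WT at 3000, in the dark and at 30000. MIR163 was highest in WT at 3000, followed by xpf-3 in the dark, WT in the dark, xpf-3 at 3000, WT at 30000 and xpf-3 at 30000, and then by uvr8-6 at 3000, in the dark and at 30000. For either locus the libraries of each group overlapped those of its neighbours in the order. The 3 WT groups thus had the lowest MIR408 means, and the 3 uvr8-6 groups the lowest MIR163 means.

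MIR408 was the only locus of the copper list with enough counts to test. The list held 7 loci whose products are known to target copper proteins or to be activated by SPL7. MIR397A and MIR397B, which target laccases, had 1 count each in 27 libraries. MIR857A, which targets a further laccase, had 0 counts in 27 libraries. MIR398A, MIR398B and MIR398C, which target copper superoxide dismutases or their chaperone, had 30, 93 and 49 counts. Summed, the 3 MIR398 loci had 94 counts in xpf-3, 44 in uvr8-6 and 34 in WT, over 9 libraries each, with mean levels of 256, 127 and 88.1 CPM. This sum was not tested. By locus, in the same order, MIR398A had 23, 1 and 6 counts, MIR398B had 44, 31 and 18, and MIR398C had 27, 12 and 10. MIR398A was thus lower in uvr8-6 than in WT, unlike the sum.

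The light list held 16 loci tied to HY5 or to the PIF transcription factors, of which 13 were tested. In uvr8-6 against WT, averaged over treatments, 6 rose and 2 fell among the 13, beside 43.6% of all loci called, with a list median of 0.38 against -0.07 over all 101 loci (log2). Besides MIR408, the loci that rose make miR156, which delays the adult phase by repressing SPL factors: MIR156B (0.64 ± 0.09 SE), MIR156C (0.65 ± 0.10), MIR156D (0.52 ± 0.16), MIR156E (0.54 ± 0.15) and MIR156F (0.38 ± 0.15). Besides MIR163, MIR858A fell (-1.02 ± 0.26, edgeR adjusted p = 0.00341). It targets MYB factors of the flavonoid and phenylpropanoid pathway. Reads of near-identical MIR156 copies may be split between loci, since how the authors counted such reads is not given in the sources used here. In xpf-3 against WT, MIR408 was the single call among the 13, beside 1.98% of all loci called, with a list median of -0.08 against 0.04. After 30000 averaged over genotypes, beside 34.7% of all loci called, MIR156C rose (0.36 ± 0.10), MIR156E and MIR156F fell (-0.89 ± 0.15 and -1.06 ± 0.15), and the list median was 0.11 against 0.16. At 3000 averaged over genotypes, 0 of the 13 were called by edgeR, beside 2.97% of all loci.

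Of the list for phenylpropanoids, lignin and defence, 3 of 8 loci were tested: MIR163, MIR408 and MIR858A. In uvr8-6 averaged over treatments 1 rose and 2 fell, beside 43.6% of all loci called (median -1.02 against -0.07). In xpf-3 averaged over treatments MIR408 alone was called, beside 1.98% of all loci. With microRNA totals as library sizes edgeR called 0 of the 3 in any UV-B comparison, where 0 to 34.7% of all loci were called. MIR163 at 30000 passed with library sizes of all small RNAs, as given above. Among 7 loci linked to leaves or flowers, 4 were tested. In the same uvr8-6 comparison, with its 43.6% of all loci called, MIR164C rose (0.54 ± 0.15), and MIR824A (-0.64 ± 0.13) and MIR172E (-0.83 ± 0.28) fell. MIR824A and MIR172E thus moved in the direction of MIR163, and their part in its result was not tested.

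Loci whose levels ran most like those of MIR163 over the 27 libraries were MIR169M (Pearson's r of log2(CPM + 1) 0.63), MIR822A (0.57), MIR824A (0.57), MIR168A (0.56) and MIR166A (0.54). The lowest were AT5G07065 (-0.61) and MIR156C (-0.59), which stood at -0.49 and -0.15 with library sizes of all small RNAs. For MIR408 the most alike were AT2G05455 (0.64), MIR842A (0.48), AT2G03855 (0.41), MIR167B (0.37) and AT4G07565 (0.36). AT4G07565 had a Spearman's rho of 0.026, and r values of -0.16 over the 9 group means and 0.17 with library sizes of all small RNAs. By the same r values in that order, AT2G03855 stood at 0.30 and 0.23, and MIR167B at 0.26 and 0.30. AT2G05455 stood at 0.80 and 0.65, and MIR842A at 0.73 and 0.51. The lowest for MIR408 were AT5G03225 (-0.51) and MIR159A (-0.46), at -0.40 and -0.15 with library sizes of all small RNAs. AT2G05455, named MIR8175 in RefSeq, was also the other locus that passed in xpf-3 averaged over treatments (0.82 ± 0.19 SE, edgeR adjusted p = 0.0157). MIR842A stood at 0.81 ± 0.27 in xpf-3 (adjusted p = 0.186) and at 0.80 ± 0.28 in uvr8-6 (adjusted p = 0.0205). All of these loci share libraries, depth and groups, and the likeness is a description.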

How the data were processed

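Values are the raw counts per small RNA locus deposited by the authors as whole numbers. Small RNA libraries were made with a SMARter kit per the labels, and the submitters' processing notes name FastQC and cutadapt. Not given in the sources used here are the aligner, counter, genome build, use of strand and treatment of reads that map repeatedly, so no coordinates are printed. The deposited normalized and rlog values were not used, nor were 272 columns of values that carry no sample of this series. The 2 loci and all lists were chosen with earlier results of these data known.

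The 323 microRNA loci (147 without a symbol, named by RefSeq TAIR10.1) were scaled by TMM and filtered with filterByExpr (minimum count 10), leaving 101. They were fitted in edgeR 4.0.16 (R 4.3.3) by quasi-likelihood over 27 libraries and 9 groups, with 18 residual degrees of freedom and Benjamini-Hochberg adjustment over 101 loci, called at 0.05. Each SE was obtained by dividing the log2 change by the root of the F statistic, and intervals use 18 degrees of freedom. edgeR can raise a p where the fitted spread is below counting error, so p and interval can differ. Steps were tested on simulated counts with the same spread for all loci, which gives no error rate for MIR163 or MIR408. Loci named were the 2 members, listed loci that passed, and for each member the 5 most and 2 least alike loci. Chi-square per degree of freedom between replicate libraries ran from 10.07 to 50.1, so no library was counted as a duplicate. Alternatives were RLE scaling, DESeq2 1.42.0, no filter, all small RNA library sizes, only the groups compared, a replicate block, libraries left out, and permutation.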

Additional observations from a re-analysis of the deposited data

How the results depend on the processing

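MIR408 averaged over treatments passed in xpf-3 and in uvr8-6 under RLE scaling, DESeq2, no filter, only the groups compared, the replicate block, the permutation test and each library left out. With library sizes of all small RNAs it gave 1.32 in xpf-3 and missed the threshold (adjusted p = 0.0635), MIR163 at 30000 passed in xpf-3 (-1.81) and in the mean of genotypes (-1.16), and small values changed sign: MIR163 at 3000, mean of genotypes (-0.13), MIR408 at 30000 in xpf-3 (-0.84) and in the mean (-0.54), and the MIR408 response to 3000 in xpf-3 (-0.26) and uvr8-6 (0.050) minus WT. That scaling also moved the MIR163 level to 420 CPM in WT at 30000, 473 in xpf-3 at 3000 and 331 in xpf-3 at 30000. MIR408 at 30000 in xpf-3, at 0.00, turned to -0.063 with RLE, -0.057 with DESeq2, -0.37 without the filter, -0.11 with only the groups compared and -0.033 with the replicate block. Without the filter, MIR408 at 30000 in the mean gave -0.13 and its response to 3000 in xpf-3 minus WT gave -0.037. With the uvr8-6 libraries numbered II left out, MIR163 in uvr8-6 against WT in the dark passed (-2.24), which follows from a choice made on MIR163 itself, and signs changed for MIR163 at 3000 in the mean (-0.063), at 30000 in uvr8-6 (0.29) and in its response to 3000 in uvr8-6 minus WT (-0.30), and for MIR408 at 30000 in the mean (-0.14). That choice gave 5 calls at 3000 in the mean, 1 at 3000 in uvr8-6 and 0 at 30000 in uvr8-6, against 3, 0 and 3 with all libraries. The causes of these changes were not tested.

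Leaving out 1 library at a time gave MIR163 in uvr8-6 against WT -1.64 to -0.89 over treatments and -2.37 to -0.74 in the dark, and in xpf-3 against WT in the dark -0.32 to 0.86. For UV-B against dark it gave MIR163 at 3000 -0.69 to 1.66 in uvr8-6 and -0.31 to 0.45 in the mean, MIR163 at 30000 in uvr8-6 -0.54 to 0.89, and MIR408 at 30000 -0.71 to 0.034 in WT, -0.40 to 0.16 in xpf-3 and -0.067 to 0.30 in the mean. For responses minus WT it gave, at 3000, MIR408 in xpf-3 -0.35 to 0.55, MIR163 in uvr8-6 -1.19 to 1.23 and MIR408 in uvr8-6 -0.51 to 0.57, and at 30000, MIR163 in xpf-3 -0.99 to 0.10, MIR408 in xpf-3 -0.17 to 0.71 and MIR163 in uvr8-6 -0.16 to 1.38.

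Pooled over all groups, library numbers showed no common pairing: 20 of 108 same-numbered pairs correlated above 0.1 (median -0.04), and 6 of 27 libraries correlated best with their own number. Pairing within single genotypes was not tested on its own. With numbers as a replicate block edgeR called 2 loci in xpf-3 and 19 higher and 24 lower in uvr8-6, averaged over treatments. The block turned the sign of the MIR163 response to 3000 in uvr8-6 minus WT (-0.11) and of MIR408 at 30000 in xpf-3 (-0.033). It changed no call of either locus. Counts of calls over all loci moved by over 1.5 times in several comparisons: at 3000 in the mean, with 3 in the reported fit, 11 with DESeq2, 12 with library sizes of all small RNAs and 7 without the filter, and at 3000 in xpf-3, with 7 in the reported fit, 17 with DESeq2, 16 with library sizes of all small RNAs and 13 without the filter. At 30000 library sizes of all small RNAs gave 28 in WT and 33 in xpf-3, against 15 and 16 in the reported fit, and DESeq2 gave 25 in xpf-3. With only the groups compared, edgeR made 2 calls against 15 in uvr8-6 against WT in the dark (9 without the filter), 10 against 16 at 30000 in xpf-3, 0 against 3 at 30000 in uvr8-6, where DESeq2 made 3, 5 against 3 at 3000 in the mean and 3 against 2 in xpf-3 against WT averaged over treatments. DESeq2 also gave 3 in that last comparison, where library sizes of all small RNAs gave 0. Leaving out 1 library gave, at 30000, 6 calls in xpf-3 (without dark II), 0 in uvr8-6 (without dark I, 30000 II or 30000 III) and 5 in WT (without 30000 III, and 7 without dark III). At 3000 it gave 0 against 1 by edgeR in WT (without dark II or any of the 3000 libraries), where DESeq2 made 1 with all libraries. It gave 4 at 3000 in xpf-3 (without dark III or 3000 II), 3 to 9 at 3000 in the mean (highest without WT 3000 III), 7 in uvr8-6 against WT in the dark (without WT dark II, and 8 without WT dark III), and 1 in xpf-3 against WT over treatments, MIR408 (without WT dark I, WT 3000 II, WT 3000 III or xpf-3 dark II). Of the 5 loci most like MIR163, 3 were kept with Spearman's rho and 3 with the 9 group means. Of the 5 most like MIR408, 2 were kept with group means and 2 with library sizes of all small RNAs. With 2 to 84 counts per library, the dose effects of either locus could not be resolved below the intervals given.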
